A study of Saccharomyces pastorianus with 18 samples.

Results

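The S. eubayanus chromosome VII of lager yeast was followed through 18 RNA-seq libraries of 2 mutant strains. Its members are the 496 features that the deposited count table places on chromosome VII of the S. eubayanus sub-genome, out of 11979 features in all. A gene symbol is given for 410 of them and 86 have none. For 404 there is one S. cerevisiae feature with the same gene name, which lies on S. cerevisiae VII for 403 of them and on XIV for AIF1. The chromosome was chosen by its counts, since an earlier look at them found almost none in 2 libraries, so that loss is described below without a test.

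Lager yeast, Saccharomyces pastorianus, is a hybrid of the ale and baking yeast S. cerevisiae and the cold-tolerant S. eubayanus. Most genes exist as one copy per parental sub-genome, and the number of copies of each chromosome differs between lager strains. Exchanges between the homologous chromosomes of the 2 parents, of which one at XRN1 on chromosome VII is well known, leave chromosomes with an arm from each parent. Cells of such strains can gain or lose whole chromosomes, and a gene lost from one sub-genome is then carried by its partner alone. Chromosome VII holds genes for glycolysis (ENO1, TDH3), sterol synthesis (ERG1, ERG25, ERG26), the aromatic amino acids (ARO2, TRP5) and many ribosomal proteins.

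W34/70 9.7 and CBS1538 11.1 are each 1 mutant isolate, obtained by exposing W34/70 or CBS1538 to radicicol, an inhibitor of the chaperone Hsp90, and picking colonies resistant to the phenylalanine analogues B2TA or PFPA. Each was grown as 3 cultures per condition. The conditions were day 2 and day 4 of an unshaken fermentation at 13 °C in 10% wort with zinc sulfate, and exponential growth at 20 °C in minimal medium with dextrose, maltose and ammonium sulfate and no amino acids, so that minimal medium differs from wort in temperature, growth phase and nutrients together. The labels of the CBS1538 11.1 day 2 libraries disagree, with the mutant in the title and the parental strain in the strain field, and each comparison that uses them carries that doubt.

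The libraries held 12782267 to 19467656 counts in W34/70 9.7 and 5266324 to 16571345 in CBS1538 11.1. Below, a library with the chromosome means one with RNA counts across S. eubayanus VII, and the DNA itself was not examined. W34/70 9.7 day 2 replicate 2 and day 4 replicate 1, which carry the same labels as the other replicates of their groups, had almost no counts on S. eubayanus VII. They stand apart on other chromosomes too: relative to the other replicates of their group the median feature stood at -0.84 and -0.95 (log2) on S. cerevisiae XII, at -0.42 and -0.57 on S. cerevisiae XVI and at -0.41 and -0.36 on S. eubayanus X. The W34/70 9.7 fermentation libraries with the chromosome differ among themselves as well: on S. cerevisiae I day 2 replicate 1 and day 4 replicate 2 stood at -0.82 and -0.88, and on S. eubayanus II replicate 3 of day 2 and of day 4 stood at 0.83 and 0.78. Of the W34/70 9.7 libraries, day 2 replicate 2 and day 4 replicate 1 enter no test below unless named, and all others are used. Levels are CPM, counts scaled to library size with TMM factors, and a call is an adjusted p under 0.05 in edgeR's quasi-likelihood test.

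S. eubayanus VII was expressed as 1 long stretch with silent ends in both strains. The step on the left lay at XRN1 (DI49_1803, VII:177507-182081, minus strand), which encodes the cytoplasmic 5′ to 3′ exoribonuclease, and the step on the right at ZUO1 (DI49_2246, VII:1027803-1029104, minus strand), a ribosome-associated co-chaperone. Of the 78 features left of XRN1, 76 had no group mean of 1 CPM and 69 had no count in any of the 16 libraries. The 409 features between the steps run from the nucleoporin gene NUP49 (DI49_1804, VII:182653-184050) to ERV29 (DI49_2245, VII:1026619-1027551), a receptor for secretory cargo. Among them 390, 393 and 388 had a group mean of at least 1 CPM on days 2 and 4 and in minimal medium in W34/70 9.7, and 391, 395 and 390 did so in CBS1538 11.1.

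**Figure D1:**
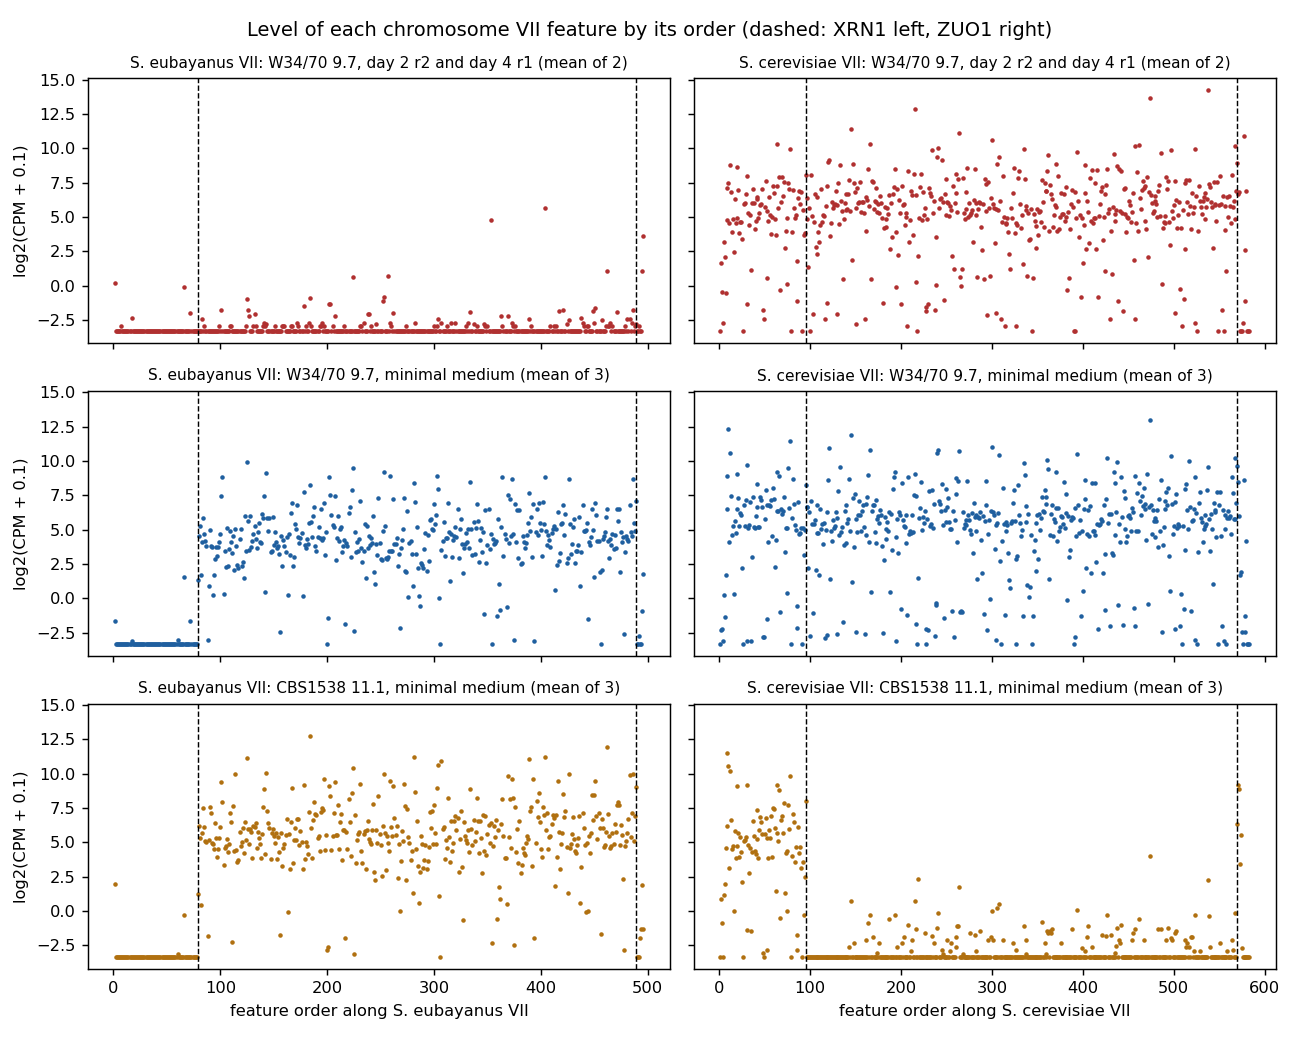
Level of each feature (y axis, log2(CPM + 0.1)) by its order along chromosome VII (x axis), for S. eubayanus VII on the left and S. cerevisiae VII on the right; from top to bottom the panels show the mean of W34/70 9.7 day 2 replicate 2 and day 4 replicate 1, the mean of the 3 W34/70 9.7 minimal medium libraries and the mean of the 3 CBS1538 11.1 minimal medium libraries, and dashed lines mark XRN1 and ZUO1. The 409 S. eubayanus features between the lines are mostly expressed in the lower 2 left panels and, but for a few, near 0 counts in the upper one, and most of the 474 S. cerevisiae features between the lines are near 0 counts in CBS1538 11.1.

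XRN1, at the left step, was itself at an in-between level. Its S. eubayanus copy had 7.45 and 14.2 CPM on day 2, 6.62 and 6.78 on day 4 and 2.52, 3.11 and 1.58 in minimal medium in W34/70 9.7. In CBS1538 11.1 it had 22.4, 36.5 and 26.8 CPM on day 2, 30.5, 30.6 and 36.8 on day 4 and 3.33, 1.11 and 2.38 in minimal medium. In every library with the chromosome these levels were below those of the next gene, NUP49, which spanned 13.2 to 30.4 CPM in W34/70 9.7 and 45.8 to 76.1 CPM in CBS1538 11.1 although it is shorter than XRN1 (1398 against 4575 bases). They were above those of the silent genes to the left, such as the hexokinase gene HXK2 (0 to 0.0569 CPM as a group mean). At the right step S. eubayanus ZUO1 was expressed, at 39.4 to 150 CPM in W34/70 9.7 and 93.0 to 859 CPM in CBS1538 11.1, and the next gene, the biotin synthase gene BIO2 (DI49_2247, VII:1029917-1031044), had 0 counts in every library. Left of XRN1 only DI49_1721 at the chromosome's first base (VII:1-1587) and RPS26A (VII:149185-149544) passed the count filter; the highest of the 3 W34/70 9.7 minimal medium libraries had 4.39 CPM of RPS26A, a ribosomal protein gene with a near-identical paralog whose reads may be shared.

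On S. cerevisiae VII the 2 strains differed between the same steps. Of its 474 features between XRN1 and ZUO1, 421, 428 and 413 had a group mean of at least 1 CPM on days 2 and 4 and in minimal medium in W34/70 9.7, against 9, 4 and 8 in CBS1538 11.1. S. cerevisiae NUP49 had 0 counts in every CBS1538 11.1 library, and S. cerevisiae ZUO1 had 33.0 to 99.4 CPM there, against 232 to 843 CPM in the other strain's libraries with the chromosome. Left of XRN1 the 94 S. cerevisiae features were expressed in both strains (82, 81 and 78 at 1 CPM or more in W34/70 9.7, and 82, 83 and 77 in CBS1538 11.1). The left arm was thus read from S. cerevisiae copies only in either strain, and the stretch between XRN1 and ZUO1 from both copies in W34/70 9.7 and, but for a few features, from the S. eubayanus copy in CBS1538 11.1. Right of ZUO1 the S. cerevisiae genes BIO2, IMA1 and MAL13 were expressed in CBS1538 11.1 (122.9 to 679 CPM, 382 to 2287 CPM and 8.97 to 132.7 CPM), while the maltase gene MAL12 had 0 counts in it.

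The stretch between XRN1 and ZUO1 took 2.15%, 2.18% and 1.86% of all library counts on days 2 and 4 and in minimal medium in W34/70 9.7, where its S. cerevisiae homolog took 7.55%, 6.77% and 6.45%. In CBS1538 11.1 it took 8.33%, 8.41% and 8.51%, and its S. cerevisiae homolog 0.00572%, 0.00292% and 0.00748%. By the median log2 CPM per kilobase of its features with a strain mean of 5 CPM or more, the stretch ranked 3rd to 6th from the lowest among the 16 S. eubayanus chromosomes in the 7 W34/70 9.7 libraries with the chromosome (376 features, medians of 3.94 to 4.20). On the same measure it ranked 8th to 13th in the 9 CBS1538 11.1 libraries (382 features, 5.08 to 5.30). Along the stretch, 10 bins of 40 or 41 features had medians of 3.11 (NUP49 to CWC23) to 4.88 (DI49_1891 to RPL24A) in W34/70 9.7 and of 4.56 to 5.95 in CBS1538 11.1, with the same pair of bins lowest and highest in both strains.

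Per length, the glycolytic enolase gene ENO1 had the highest level on the chromosome in both strains, with a mean of 2064 CPM per kilobase in W34/70 9.7 (range 53.0 to 6225) and 5600 in CBS1538 11.1 (2169 to 10497). The next were RPS25A, RPS2, TDH3 and RPL30 in W34/70 9.7 (means of 1501, 1116, 1011 and 991 CPM per kilobase). In CBS1538 11.1 they were OLE1, the fatty acid desaturase gene, RPS25A, TDH3 and RPS2 (3195, 2766, 2404 and 2388). The share of library counts on the whole chromosome could not be called different between conditions in any comparison, since an exact permutation test cannot pass the threshold with these numbers of libraries. In W34/70 9.7 it was 2.16% ± 0.098 on day 2 and 2.19% ± 0.057 on day 4 (SD, n = 2 each; two-sided exact permutation p = 0.667), and 1.87% ± 0.015 in minimal medium (n = 3; exact p = 0.2 against either day, the smallest possible for 3 against 2 libraries). In CBS1538 11.1 day 2 libraries it was 8.36% ± 0.231, with 8.43% ± 0.191 on day 4 and 8.58% ± 0.219 in minimal medium (n = 3 each; exact p of 0.2 to 0.7). The adjusted p over the 6 comparisons was 0.4 to 0.7, and the smallest p possible was 0.1 for 3 against 3 libraries and 0.333 for 2 against 2.

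In all, 1465 and 1417 counts fell on S. eubayanus VII in W34/70 9.7 day 2 replicate 2 and day 4 replicate 1, against 284445 to 396506 in the other W34/70 9.7 fermentation libraries. In the stretch between XRN1 and ZUO1, 377 and 313 of the 409 features had 0 counts, and only 5 and 7 had 10 counts or more. A count of 0 allows up to 3 counts, or 0.217 and 0.167 CPM in these libraries, counting error only. Over the 376 features averaging 5 CPM or more, the median log2 deviation from the other replicates was -7.68 (quartiles -8.74 to -6.68) and -7.61 (-8.58 to -6.88), and all 376 lay below 0 in both. In bulk RNA, fewer cells with the chromosome and less RNA from it per cell cannot be told apart.

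The counts that were left sat on few features. Of the counts in both libraries together TDH3 held 45.9%, TPO2 24.7% and DI49_2253, at the right end, 11.7%. TDH3, the main glyceraldehyde-3-phosphate dehydrogenase, had 757 and 565 counts, and TPO2, a polyamine exporter of the plasma membrane, had 390 and 321. ENO1 had 21 and 35 counts, and DI49_2252, right of ZUO1, 26 and 30 (11 to 54 in the other fermentation libraries). The next 2 were GSC2, a catalytic subunit of glucan synthase, with 12 and 35 counts, and PMA1, the plasma membrane proton pump, with 21 and 16. The other fermentation libraries had 28342 to 70930 counts of ENO1 and 8176 to 22947 of TDH3, but only 742 to 1416 of TPO2. Set against their S. cerevisiae partners in the same 2 libraries, the residual counts were 74.9 per 1000 for TPO2, 4.04 for TDH3, 3.56 for GSC2, 0.605 for PMA1 and 0.115 for ENO1. The residue thus did not follow the genes' usual levels; the handling of reads that match both copies is not given in the sources used here, and its part was not tested. At the right end DI49_2253 (VII:1046083-1047213) was not lower, with 135 and 203 counts against 29 to 96 in the other fermentation libraries, and it is a subtelomeric feature with no symbol.

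The S. cerevisiae partners were close to the other replicates. Over 335 partners between XRN1 and ZUO1 the 2 libraries had median log2 deviations of 0.10 and 0.02, with 191 and 176 of them above 0, where the features of all other S. cerevisiae chromosomes had -0.07 and -0.16. Set against each other alone, the other day 2 libraries stood within 0.22 and the other day 4 libraries within 0.25 of 0 on the same measure, so the deviation of the partners from 0 was no larger than the spread between replicates. When TMM factors were replaced by library totals the value for day 2 replicate 2 was 0.37, and that for day 2 replicate 1, against both other day 2 libraries, was -0.10 in place of 0.15. Only 4 of the 335 partners were at least 1 log2 unit higher in both libraries, namely CGR1, MUP1, PRP38 and TPO2 (1.19%, against 0.962% of the 4780 features on other S. cerevisiae chromosomes). The 4 that were at least 1 log2 unit lower were BTN2, SOL4, SPG1 and SPO74 (1.19%, against 4.48%).

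On the TMM scale, the summed RNA of a pair was lower in these libraries by about the share that the S. eubayanus copy had elsewhere. Over 326 pairs the summed CPM had median log2 deviations of -0.40 and -0.44, and 269 and 283 of the pairs lay below 0. In 325 pairs with counts enough for a share, the S. eubayanus copy gave a median of 27.9% and 25.8% of the pair's counts in the other replicates. Removing exactly that share with the partner left as it was would give medians of -0.47 and -0.43, and the measured medians over these pairs were -0.42 and -0.44. The measured sum minus that value had a median of 0.09 and 0.01 per pair. With the S. eubayanus copy near 0 counts, this difference restates the deviation of the partners and is no separate test. In 51 and 40 of the 325 pairs the sum was not lower. The TMM factor of day 2 replicate 2 was 0.778, against 0.608 and 0.678 in replicates 1 and 3. That of day 4 replicate 1 was 0.994, against 0.891 and 0.886 in replicates 2 and 3. On library totals the sums of both libraries would thus stand higher than given here, so the match with the share holds on the TMM scale only.

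**Figure D2:**
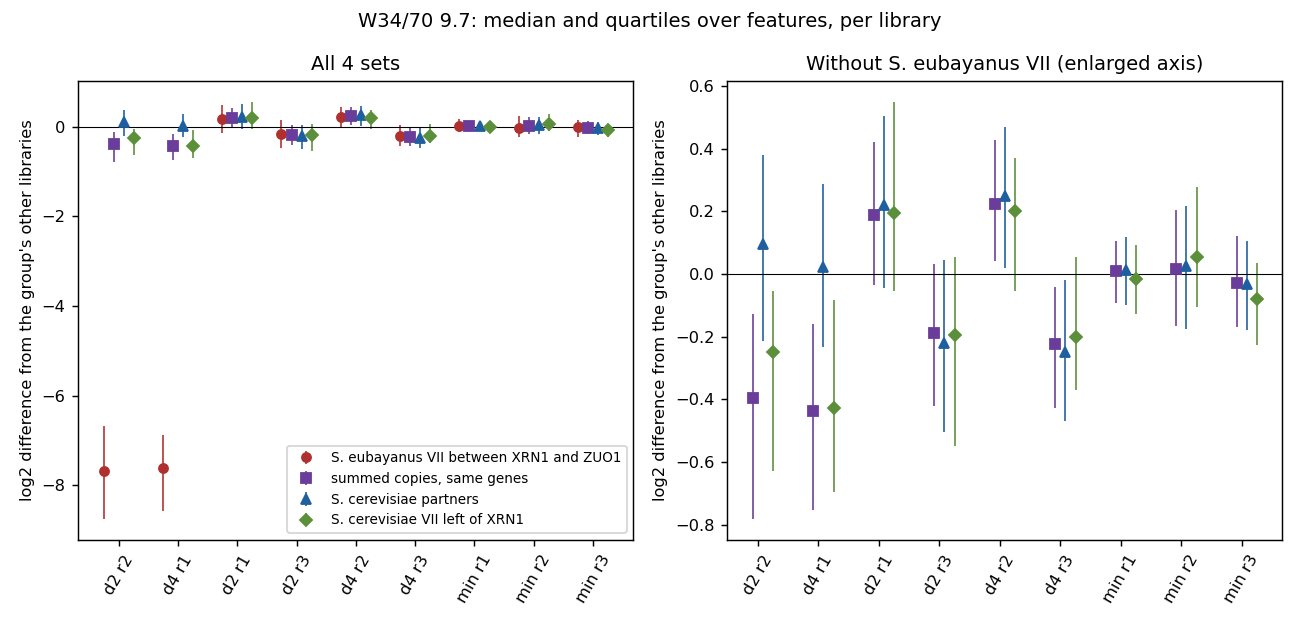
Median log2 deviation of each W34/70 9.7 library from the other replicates of its group with the chromosome (y axis; bars span the quartiles over features), for S. eubayanus VII features between XRN1 and ZUO1, the sum of both copies, their S. cerevisiae partners and S. cerevisiae features left of XRN1; the right panel leaves out the S. eubayanus values and enlarges the rest. Day 2 replicate 2 and day 4 replicate 1, at the left, stand at -7.68 and -7.61 for S. eubayanus VII, at -0.40 and -0.44 for the sum and at 0.10 and 0.02 for the partners.

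Features of S. cerevisiae VII outside the stretch did not stay level in these 2 libraries. Left of XRN1 the S. eubayanus copies are silent in all libraries. There the 75 S. cerevisiae features had median deviations of -0.25 and -0.43, with 58 and 61 of them below 0. Features of all other S. cerevisiae chromosomes also lay low, at -0.07 and -0.16, with 2607 and 3026 of 4780 below 0. Right of ZUO1 the 6 measured features stood at -2.58 and -2.23. IMA1, an isomaltase, had 110.2 and 114 CPM against 1153 to 2230 in the other fermentation libraries, and the maltose activator MAL13 and the maltose permease MAL11 had 0 counts in both against 19.4 to 32.9 and 21.7 to 31.5 CPM. Maltase gene MAL12, which lies next to them, had 1815 and 2066 CPM against 2353 to 5550. So the right end was split, with some of its genes at 0 and others well expressed in the same 2 libraries.

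In the 7 W34/70 9.7 libraries with counts across the chromosome, the S. eubayanus copy was the minor copy for most genes. Its median share of a pair's counts was 27.5% and 27.0% on day 2, 25.5% in both day 4 libraries and 25.4%, 25.5% and 25.6% in minimal medium, where pairs on the other chromosomes had medians of 30.5% to 37.5%. In the bins along the stretch the median share lay between 23.4% and 29.1% in minimal medium. Of the 336 to 340 pairs with 20 counts or more in a library, those with more than 50% of counts on the S. eubayanus copy numbered 26 and 39 on day 2, 13 and 17 on day 4 and 3 to 6 in minimal medium. In CBS1538 11.1 its median share was 100%.

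Some pairs departed from this minor share in one condition, and the copy ratio of 338 pairs was tested among 4031 pairs of the genome. For day 4 against day 2 the share of the S. eubayanus copy rose in 23 pairs (background 4.64% of all pairs) and fell in 48 (background 14.1%). For minimal medium against day 2 it rose in 58 (background 16.6%) and fell in 99 (background 25.3%), and for minimal medium against day 4 it rose in 38 (background 13.5%) and fell in 50 (background 10.3%). The median change of the log2 copy ratio was -0.10, -0.18 and -0.01 over these pairs and -0.20, -0.09 and 0.11 over all pairs. The day 4 against day 2 count, 71 in all, was 18 without day 4 replicate 2, 23 without day 4 replicate 3 and 44 without day 2 replicate 3. That for minimal medium against day 2, 157 in all, was 103 without minimal medium replicate 1. Against day 4 the count, 88 in all, was 35 to 52 without any one of the 5 libraries. No pair was called in any comparison once the 2 libraries with almost no counts on the chromosome were included.

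MUP1, the high-affinity methionine permease (DI49_2015, VII:579062-580792), had the largest change. Its S. eubayanus share was 40.7% and 34.9% on day 2, 27.5% and 31.4% on day 4 and 1.14%, 1.05% and 1.81% in minimal medium, and the log2 copy ratio fell by 5.43 in minimal medium against day 2 (SE 0.26, edgeR adjusted p = 0.00036). Both fermentation groups lay far above all 3 minimal medium libraries. NPY1, an NADH pyrophosphatase, was mostly of S. eubayanus origin on day 2 (82.2% and 88.2%) and at 65.3% and 68.7% on day 4, against 31.2%, 28.8% and 28.0% in minimal medium, and its ratio in minimal medium fell by 3.82 against day 2 (SE 0.23, adjusted p = 0.00036). VPS73, of vacuolar protein sorting, had 34.5% and 36.5% on day 2, 31.1% and 31.5% on day 4 and 8.97%, 6.05% and 5.74% in minimal medium, with a ratio change of -2.86 against day 2 (SE 0.23, adjusted p = 0.000435). In these 3 pairs the minimal medium libraries did not overlap the fermentation libraries.

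CTT1, the cytosolic catalase, had 75.5% and 69.1% on day 2, 67.4% and 75.5% on day 4 and 32.4%, 31.8% and 29.6% in minimal medium, and its ratio in minimal medium fell by 2.47 against day 4 (SE 0.23, adjusted p = 0.00183). TYS1, the tyrosyl-tRNA synthetase, differed between the days, with 35.9% and 36.4% on day 4, against 62.6% and 67.7% on day 2, and its ratio fell by 1.73 (SE 0.16, adjusted p = 0.00467). The yeast flavohaemoglobin gene YHB1 was at 2.88% ± 0.490 in minimal medium (n = 3) and at 17.6% ± 1.79 on day 4 (n = 2), a change of -2.85. Other pairs moved toward the S. eubayanus copy. STF2, which acts with the inhibitor of the mitochondrial ATP synthase, had 50.2% and 42.2% on day 4, against 9.66% and 17.5% on day 2, a rise of 2.51 (SE 0.34, adjusted p = 0.00874). CBP4, an assembly factor of the cytochrome bc1 complex, had 9.61% and 10.4% on day 2, 22.1% and 25.5% on day 4 and 37.9%, 33.0% and 37.2% in minimal medium, with a rise of 2.34 in minimal medium against day 2 (SE 0.17, adjusted p = 0.000385). LYS5, the phosphopantetheinyl transferase of lysine synthesis, had 34.2%, 36.4% and 36.0% in minimal medium, against 10.9% and 10.4% on day 2 (change of 2.20, SE 0.25, adjusted p = 0.00117).

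**Figure D3:**
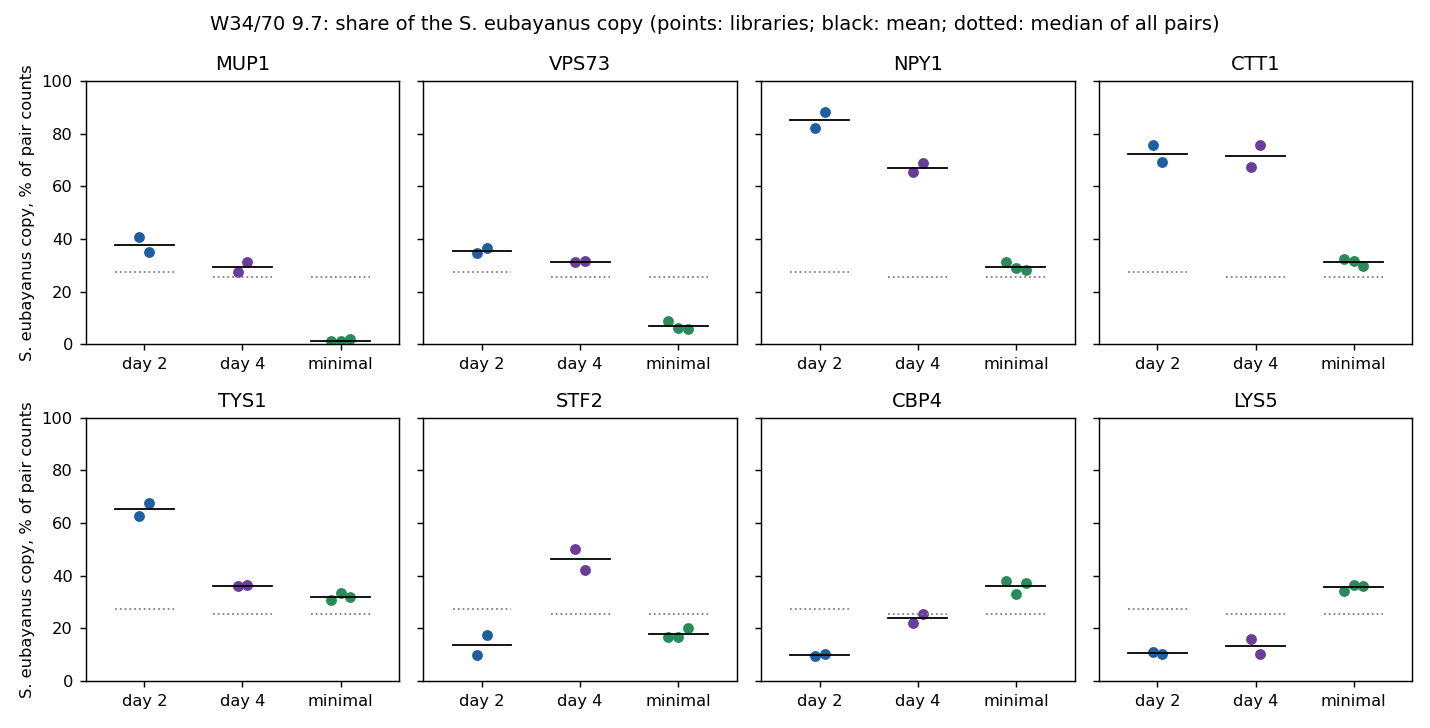
Share of a pair's counts on the S. eubayanus copy (y axis, percent) in the 7 W34/70 9.7 libraries with the chromosome, on day 2, day 4 and in minimal medium, for 8 genes; points are libraries, black bars means and dotted lines the median over all pairs of the chromosome. MUP1, VPS73, NPY1 and CTT1 are lower in minimal medium than in fermentation, TYS1 is lower on day 4 than on day 2, and STF2, CBP4 and LYS5 have shares between 9.61% and 50.2%.

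Of the 496 features, 406 passed the count filter and could be tested between conditions, 400 of them between XRN1 and ZUO1. In W34/70 9.7, 81 rose and 70 fell on day 4 against day 2 (background over all 10918 features 18.4% and 13.4%). In minimal medium, 126 rose and 124 fell against day 2 (background 30.6% and 30.1%), and 100 rose and 110 fell against day 4 (background 21.2% and 26%). The median log2 changes of the 406 were 0.09, 0.02 and 0.04, against 0.10, 0.03 and -0.01 over all features. Under library totals the median over all features was 0.57 for day 4 and 0.51 for minimal medium against day 2, and the calls became 157 higher and 35 lower, and 185 higher and 99 lower, so changes in this strain are relative to the TMM scale.

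In CBS1538 11.1, 88 rose and 69 fell on day 4 against day 2 (background 10.6% and 11%), 120 rose and 108 fell in minimal medium against day 2 (background 16.9% and 16.6%), and 116 rose and 120 fell against day 4 (background 16.4% and 16.5%). These backgrounds include S. cerevisiae features with hardly any counts in this strain. On the other S. eubayanus chromosomes of CBS1538 11.1, 17.2% and 17.4%, 27.5% and 25.1%, and 27.1% and 26.0% of 4783 features were called higher and lower. Library totals gave 108 higher and 47 lower for day 4 against day 2. The 2 libraries with almost no counts on the chromosome were also added to the fit, which pools the spread of all groups. The calls then dropped to 1, 39 and 19 in W34/70 9.7 and to 3, 14 and 14 in CBS1538 11.1. For the gene lists that follow, the background in W34/70 9.7 is the share of all features given above. There 30.6% of all features rose in minimal medium against day 2, for example. In CBS1538 11.1 the closer background is the share on the other S. eubayanus chromosomes, such as 27.5% higher in that comparison.

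Genes of glycolysis and of the pentose phosphate branch fell in W34/70 9.7. Of 8 tested genes of carbon metabolism and fermentation on the chromosome, 0 rose and 5 fell on day 4 against day 2, 0 and 5 in minimal medium against day 2 and 0 and 3 in minimal medium against day 4, with median log2 changes of -1.24, -1.64 and -0.22; without day 4 replicate 2 the first 5 falls were 3. ENO1 (DI49_2218, VII:966517-967830) had 6237 and 8180 CPM on day 2, 1978 and 2315 on day 4 and 114, 87.3 and 69.7 in minimal medium. It fell by 1.74 on day 4 against day 2 (SE 0.36, edgeR adjusted p = 0.00271) and by 6.32 in minimal medium against day 2 (SE 0.37, adjusted p = 2.73e-09), with no overlap between any of the 3 conditions. TDH3 (DI49_2159, VII:849972-850970) had 2513 and 1872 CPM on day 2, 630 and 668 on day 4 and 473, 523 and 394 in minimal medium, and against day 2 it fell by 1.75 on day 4 and 2.25 in minimal medium (adjusted p = 0.00187 and 1.3e-05). SOL4 and GND2, of the pentose phosphate pathway, fell by 4.20 and 4.55 in minimal medium against day 2. GND2 stood at 7.62, 9.48 and 5.42 CPM in minimal medium, against 142 and 208 CPM on day 2.

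In CBS1538 11.1 the same list had 0 rises and 2 falls, 1 rise and 1 fall, and 0 rises and 1 fall in the same order of comparisons, with medians of 0.15, -0.25 and -0.10. Under library totals it had 3 rises and 2 falls for day 4 against day 2. ENO1 had 13793, 10640 and 11673 CPM on day 2, 7458, 6122 and 4784 on day 4 and 3358, 2850 and 5551 in minimal medium. The minimal medium libraries lay below all day 2 libraries, with a change of -1.58 (adjusted p = 0.000486). Its change on day 4 (-0.99, adjusted p = 0.0229) and that of TDH3 (-0.97, adjusted p = 0.0179) missed the threshold without day 2 replicate 1, day 4 replicate 2 or day 4 replicate 3. SOL4 had 66.3, 65.6 and 65.3 CPM in minimal medium, against 38.6, 44.3 and 45.8 on day 2, and its rise of 0.66 (adjusted p = 0.0176) also missed the threshold when any of 3 libraries was left out.

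ERG1, ERG25 and ERG26, of sterol synthesis, rose on day 4 and in minimal medium against day 2 in both strains. Of 5 tested sterol and fatty acid genes 3 rose and 0 fell in W34/70 9.7 on day 4 against day 2, and 4 rose and 0 fell in CBS1538 11.1 (medians of 1.42 and 1.34). In minimal medium against day 2, 3 rose and 1 fell in W34/70 9.7 and 4 rose and 0 fell in CBS1538 11.1 (0.94 and 2.24). ERG1, the squalene epoxidase, an oxygen-requiring step (DI49_2141, VII:814998-816488), had 128.3 and 80.0 CPM on day 2, 342 and 334 on day 4 and 216, 203 and 182 in minimal medium in W34/70 9.7, a rise of 1.71 on day 4 against day 2 (SE 0.29, adjusted p = 0.000953). In CBS1538 11.1, ERG1 had 260 to 450 CPM on day 2, 1162 to 1330 on day 4 and 1823 to 2401 in minimal medium, with rises of 1.80 on day 4 and 2.63 in minimal medium against day 2 (adjusted p = 0.00015 and 7.7e-07). Both strains had every day 4 library above every day 2 library. ERG25 and ERG26, which remove the methyl groups at carbon 4 of the sterol ring, rose by 1.42 and 1.87 on day 4 against day 2 in W34/70 9.7 and by 1.54 and 1.34 in CBS1538 11.1.

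In minimal medium against day 4, 0 of the 5 rose and 2 fell in W34/70 9.7 (median -0.36), and 3 rose and 1 fell in CBS1538 11.1 (0.83). The one that fell there was ERG4, the last enzyme of ergosterol synthesis (change of -0.71, adjusted p = 0.015, missed without minimal medium replicate 1 or 2), which was called in no other comparison. ERG1 fell by 0.77 in W34/70 9.7 (adjusted p = 0.0212) and rose by 0.83 in CBS1538 11.1 (adjusted p = 0.00986), and the interaction was -1.60 (adjusted p = 0.00508). The fall missed the threshold without any one of day 4 replicates 2 and 3 and minimal medium replicate 3, and the rise without minimal medium replicate 1.

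The aromatic amino acid genes on the stretch fell during fermentation. Both tested genes fell on day 4 against day 2 in each strain, and ARO8, the aromatic aminotransferase gene, lies in the silent left arm at 0 counts. ARO2, the chorismate synthase, had 380 and 472 CPM on day 2, 129 in both day 4 libraries and 175, 177 and 161 in minimal medium in W34/70 9.7, a fall of 1.72 on day 4 against day 2 (SE 0.25, adjusted p = 0.000393). TRP5, the tryptophan synthase, had 168 and 149 CPM on day 4 and 427 and 519 on day 2, a fall of 1.57 (adjusted p = 0.00111). In CBS1538 11.1, TRP5 had 740, 915 and 973 CPM on day 4 and 1769, 2261 and 1847 on day 2, a fall of 1.17 (adjusted p = 0.0016). No library of one day overlapped the other in these comparisons. ARO2 fell by 0.74 in CBS1538 11.1 (adjusted p = 0.0134), which missed the threshold without day 4 replicate 1 or replicate 3.

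The other amino acid and one-carbon genes moved in both directions. Of 8 tested, 1 rose and 3 fell on day 4 against day 2 in W34/70 9.7 (1 and 1 under library totals), 2 rose and 3 fell in minimal medium against day 2, and 3 rose and 0 fell against day 4. In CBS1538 11.1 the counts were 0 and 1, 0 and 3, and 2 and 3. SER2, the phosphoserine phosphatase, rose by 2.07 in minimal medium against day 2 in W34/70 9.7, where it had 47.2, 43.5 and 44.0 CPM against 12.9 and 8.42. The asparagine synthetase gene ASN2 fell by 1.48 in minimal medium against day 2 in both strains. ADE6, the one purine synthesis gene tested, had 57.8 and 39.1 CPM on day 2, 54.2 and 36.2 on day 4 and 134, 117 and 138 in minimal medium in W34/70 9.7, and in minimal medium it rose by 1.42 against day 2 and 1.51 against day 4 (adjusted p = 0.000747 and 0.000729). It rose in CBS1538 11.1 as well, by 1.31 and 1.07.

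Among 8 tested genes listed under transporters, 1 rose and 3 fell on day 4 against day 2 in W34/70 9.7. Under library totals these were 4 and 1. In minimal medium 3 rose and 3 fell there against day 2, and 2 rose and 3 fell against day 4. In CBS1538 11.1 the counts were 1 and 1, 0 and 3, and 0 and 5. The list includes PHO81, a regulator of phosphate signalling that is not a transporter. PHO81 was the 1 rise on day 4 and 1 of the 5 falls against day 4 in CBS1538 11.1. It was also 1 of the 3 rises in minimal medium against day 2 in W34/70 9.7. MUP1 had 73.3 and 74.8 CPM on day 2, 40.1 and 10.8 on day 4 and 0.504, 0.636 and 1.70 in minimal medium in W34/70 9.7, a change of -6.28 in minimal medium against day 2 (adjusted p = 8.09e-08). CBS1538 11.1 had 41.0, 34.6 and 50.9 CPM in minimal medium, against 189, 305 and 240 on day 2, a change of -2.49 (adjusted p = 9e-05). TPO2 fell by 2.58 and 3.00 and PMC1, the vacuolar calcium pump, by 3.56 and 2.13 in minimal medium against day 2 in W34/70 9.7 and CBS1538 11.1. The ammonium permease gene MEP1 rose by 1.12 against day 2 and 1.66 against day 4 in W34/70 9.7 (adjusted p = 0.00171 and 0.000126) and changed by -0.43 and -0.13 in CBS1538 11.1, neither called (interaction 1.55 and 1.79, adjusted p = 0.00445 and 0.00212).

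The called changes of ribosomal protein genes in minimal medium were all rises. Of 13 tested cytosolic ribosomal protein genes, 6 rose and 0 fell against day 2 in W34/70 9.7 and 8 rose and 0 fell in CBS1538 11.1, with medians of 0.78 and 0.85. Against day 4, 12 rose in W34/70 9.7 and 11 in CBS1538 11.1 and 0 fell, with medians of 1.14 and 1.02, though the 12 were 4 without day 4 replicate 3 and 6 without minimal medium replicate 2, and the 11 were 7 without day 4 replicate 2 or 3. RPS26A, in the silent left arm, is counted among the 13 and among the rises against day 2 in CBS1538 11.1, where its day 2 libraries had 0 counts and the others at most 1.46 CPM. RPS26A is also among the 12 rises against day 4 in W34/70 9.7, and is the only rise on day 4 against day 2 in CBS1538 11.1. On day 4 against day 2, 0 rose and 3 fell in W34/70 9.7 and 1 rose and 5 fell in CBS1538 11.1, and the counts of falls were 0 without W34/70 9.7 day 4 replicate 3 and 2 without any one of 4 CBS1538 11.1 libraries. RPL9A had 118 and 94.7 CPM on day 2, 135 and 61.2 on day 4 and 421, 532 and 419 in minimal medium in W34/70 9.7, a rise of 2.10 against day 2 (adjusted p = 6.57e-05). RPL28 had 690, 473 and 536 CPM on day 4, against 2160, 1312 and 1754 on day 2 in CBS1538 11.1, a fall of 1.64 (adjusted p = 0.000864).

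Among 13 tested ribosome biogenesis genes, 12 rose and 0 fell in minimal medium against day 2 in W34/70 9.7 and 7 rose and 0 fell in CBS1538 11.1 (medians of 1.59 and 0.76), and against day 4, 9 rose and 1 fell, and 7 rose and 0 fell. On day 4 against day 2, 6 rose and 0 fell in W34/70 9.7 (median 0.85; 1 rose without day 4 replicate 2, 2 without day 2 replicate 3), and 2 rose and 2 fell in CBS1538 11.1 (median -0.20). CGR1, of ribosomal RNA processing, had 4.05 and 6.80 CPM on day 2, 11.5 and 3.27 on day 4 and 63.6, 57.1 and 79.8 in minimal medium in W34/70 9.7, a rise of 3.62 in minimal medium against day 2 (adjusted p = 3.24e-05). CBS1538 11.1 had 6.98, 5.29 and 10.8 CPM of it on day 2, 1.01, 1.87 and 2.79 on day 4, a fall of 2.01 against day 2 (adjusted p = 0.0061), and 25.3, 24.8 and 13.4 in minimal medium. In both strains every minimal medium library lay above every wort library. The helicase gene ROK1 rose by 2.94 and 1.49 and NOP7, of large subunit assembly, by 2.28 and 1.27 in minimal medium against day 2 in W34/70 9.7 and CBS1538 11.1.

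**Figure D4:**
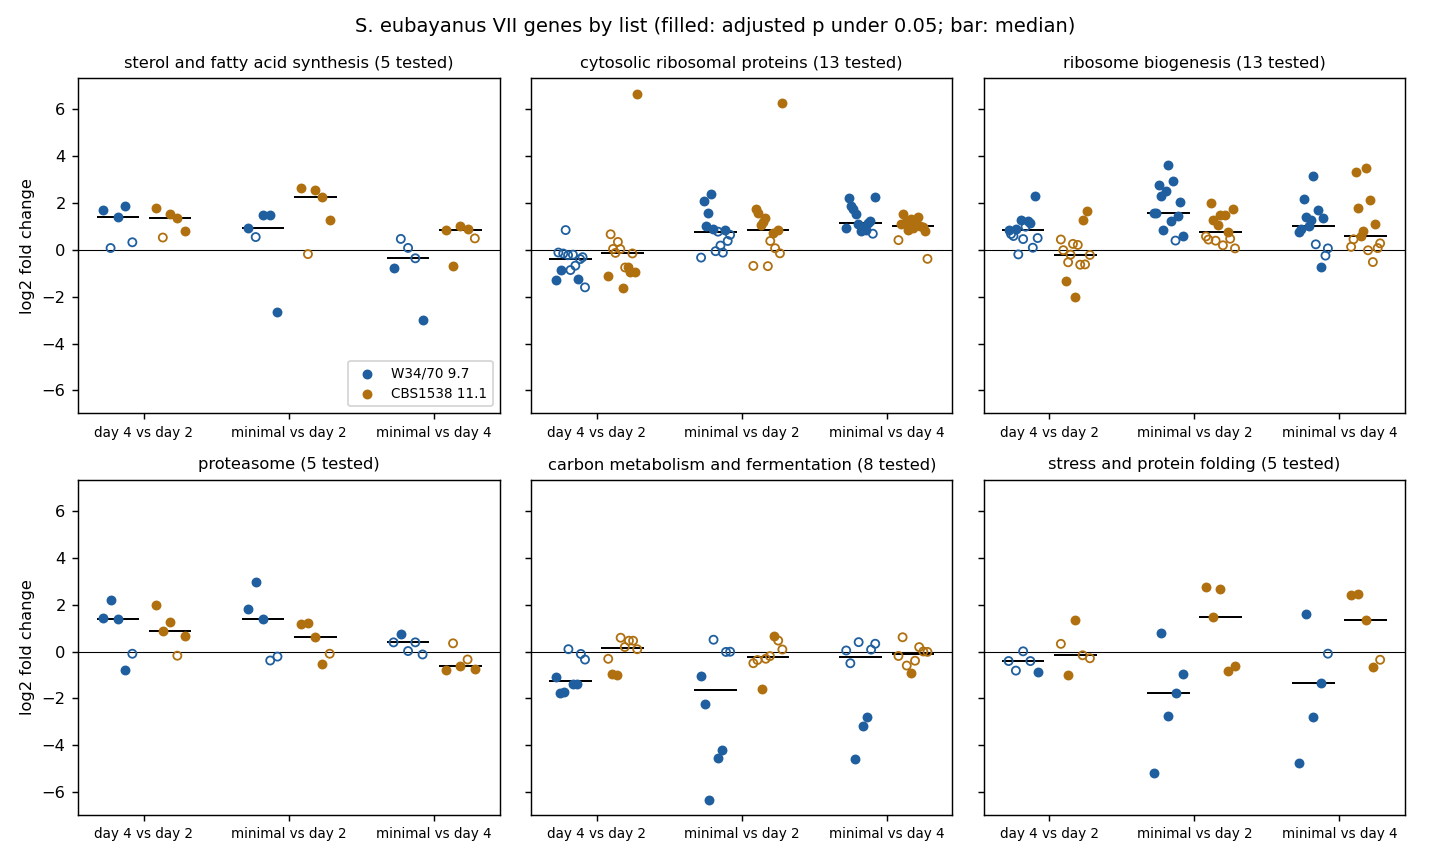
Log2 change of each tested S. eubayanus VII gene of 6 lists (y axis) in 3 comparisons, day 4 against day 2, minimal medium against day 2 and minimal medium against day 4, with W34/70 9.7 in blue left of CBS1538 11.1 in orange; filled points have an adjusted p under 0.05 and bars are medians. Ribosomal protein and ribosome biogenesis genes lie mostly above 0 in both minimal medium comparisons in both strains, and carbon metabolism genes have a median of -1.64 in W34/70 9.7 and -0.25 in CBS1538 11.1 in minimal medium against day 2.

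The alpha-ring subunits of the proteasome core rose on day 4. Of 5 proteasome genes 3 rose and 1 fell in W34/70 9.7 and 4 rose and 0 fell in CBS1538 11.1 on day 4 against day 2 (medians of 1.39 and 0.88), or 2 in CBS1538 11.1 without day 4 replicate 2. PRE9 had 71.4 and 65.8 CPM on day 4, against 29.5 and 22.3 on day 2 in W34/70 9.7 (rise of 1.41, adjusted p = 0.00199). In CBS1538 11.1 PRE9 had 127, 140 and 148 CPM on day 4, against 22.8, 34.5 and 46.2 on day 2 (rise of 1.99, adjusted p = 8.41e-05). PUP2 and SCL1 rose by 2.20 and 1.39 in W34/70 9.7 and by 0.88 and 1.26 in CBS1538 11.1, where that of PUP2 missed the threshold without any one of 5 libraries. In minimal medium against day 4, 1 rose and 0 fell in W34/70 9.7 and 0 rose and 3 fell in CBS1538 11.1.

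Of 6 tested respiratory chain and mitochondrial energy genes, 2 rose and 2 fell on day 4 against day 2 in W34/70 9.7 (3 and 0 under library totals) and 3 rose and 1 fell in CBS1538 11.1. QCR9, a subunit of the cytochrome bc1 complex, had 137 and 166 CPM on day 4, against 39.5 and 48.4 on day 2 in W34/70 9.7 (rise of 1.79, adjusted p = 0.00111). CBS1538 11.1 had 390, 321 and 328 CPM on day 4, against 60.0, 55.6 and 83.5 on day 2 (rise of 2.37, adjusted p = 7.29e-05). COQ6, of ubiquinone synthesis, had 19.6, 14.6 and 18.7 CPM in minimal medium, against 201 and 205 on day 2 in W34/70 9.7, a fall of 3.53, and it fell by 0.77 in CBS1538 11.1 (interaction -2.76, adjusted p = 1.1e-06). Of 5 tested genes listed under cell cycle and replication, 2 rose on day 4 against day 2 in W34/70 9.7, RAD54, of recombinational repair, and MIG1, a glucose repressor. The 3 that rose there in minimal medium against day 2 were MIG1, SPT6, a transcription elongation factor, and CDC20, an activator of the anaphase-promoting complex. In CBS1538 11.1, 2 rose and 1 fell on day 4 against day 2, and 0 rose and 1 fell in minimal medium against day 2.

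The largest changes on the chromosome between the days included genes of stationary phase and vitamin synthesis. SPG1, required for survival at high temperature in stationary phase, had 109 and 135 CPM on day 2, 282 and 496 on day 4 and at most 0.378 in minimal medium in W34/70 9.7, changes of 1.68 on day 4 and -8.88 in minimal medium against day 2 (adjusted p = 0.00904 and 5.82e-09). In CBS1538 11.1, SPG1 had 36.5, 61.2 and 59.6 CPM on day 2, 454, 336 and 355 on day 4 and at most 1.92 in minimal medium. In each strain the 3 conditions did not overlap. THI4, the thiazole synthase of thiamine synthesis, stayed at 1.14 CPM or less in W34/70 9.7. CBS1538 11.1 had 2.57, 98.6 and 7.71 CPM of it on day 2, 181, 817 and 639 on day 4 and 0.502, 0.806 and 0.370 in minimal medium, a rise of 3.90 on day 4 against day 2 (SE 0.87, adjusted p = 0.00448). The day 2 and day 4 libraries did not overlap, but the replicates of each day were several-fold apart.

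STF2, and ECL1, which is named for an extended chronological lifespan, rose on day 4 against day 2 in W34/70 9.7. STF2 had 73.5 and 122 CPM on day 2, 663 and 654 on day 4 and 12.1, 15.6 and 10.5 in minimal medium, a rise of 2.76 on day 4 against day 2 (adjusted p = 0.000333). ECL1 had 37.2 and 25.0 CPM on day 4, against 3.72 and 4.27 on day 2, a rise of 2.97. In CBS1538 11.1 they changed by 0.42 and 0.10, neither called, and the interactions were 2.34 and 2.87 (adjusted p = 0.0213 and 0.00173). HSF1, the heat shock transcription factor, had 24.6 and 21.6 CPM on day 4, against 50.8 and 67.7 on day 2 in W34/70 9.7 (change of -1.35), and 27.5, 47.9 and 53.3 against 110, 156 and 126 in CBS1538 11.1 (change of -1.62, adjusted p = 0.000398). SNU71, a component of the U1 splicing particle, fell by 1.64 and 1.90 and SCM4, a mitochondrial outer membrane protein, rose by 2.70 and 1.72 in W34/70 9.7 and CBS1538 11.1. GSC2 fell in minimal medium against day 4 in both strains, by 3.46 and 4.99.

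Genes listed under stress and protein folding moved in different directions in minimal medium against day 2. Of 5 tested, 1 rose and 4 fell in W34/70 9.7 (median -1.75) and 3 rose and 2 fell in CBS1538 11.1 (median 1.48). ZUO1 rose in both strains, and CTT1 and MGA1 fell in W34/70 9.7 and rose in CBS1538 11.1. The falls in both strains were of OCH1, a mannosyltransferase, and PEF1, a calcium-binding protein, which fit the name of the list loosely. CTT1 (DI49_2046, VII:635958-637640) had 403 and 416 CPM on day 2, 247 and 369 on day 4 and 15.5, 10.2 and 8.39 in minimal medium in W34/70 9.7. Its S. cerevisiae partner followed with 131 and 186, 119 and 120, and 32.4, 21.9 and 20.0 CPM. In CBS1538 11.1 CTT1 had 363, 265 and 274 CPM on day 2, 398, 360 and 387 on day 4 and 2073, 1683 and 2137 in minimal medium. The change in minimal medium against day 2 was -5.17 in W34/70 9.7 (SE 0.30, adjusted p = 2.49e-09) and 2.75 in CBS1538 11.1 (SE 0.26, adjusted p = 8.67e-07), with an interaction of -7.92 (adjusted p = 6.47e-09).

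MGA1, which has a DNA-binding domain like that of the heat shock factor, and FMP48, a putative protein kinase, likewise differed between the strains. MGA1 had 31.3 and 25.6 CPM on day 2, 24.5 and 32.6 on day 4 and 5.15, 2.69 and 4.60 in minimal medium in W34/70 9.7, a change of -2.77 in minimal medium against day 2. CBS1538 11.1 had 8.63, 21.6 and 18.9 CPM on day 2, 44.2, 37.2 and 45.9 on day 4 and 120, 103 and 87.0 in minimal medium, a rise of 2.69 against day 2 (adjusted p = 3.28e-06). FMP48 changed by -2.01 in W34/70 9.7 (adjusted p = 0.014) and rose by 4.73 in CBS1538 11.1 (SE 0.63, adjusted p = 2.46e-05), where it had 248, 198 and 154 CPM in minimal medium, against 0, 13.4 and 8.70 on day 2. OLE1 had 302, 287 and 335 CPM in minimal medium, against 2138 and 1716 on day 2 in W34/70 9.7 (change of -2.65, adjusted p = 7.91e-07), and 6589, 5009 and 8655 against 2618, 3165 and 2704 in CBS1538 11.1 (rise of 1.30, adjusted p = 0.000507). FMP43, a subunit of the mitochondrial pyruvate carrier, rose on day 4 against day 2 in both strains, by 2.66 and 2.97, and in minimal medium against day 2 fell by 1.12 in W34/70 9.7 and rose by 3.61 in CBS1538 11.1.

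**Figure D5:**
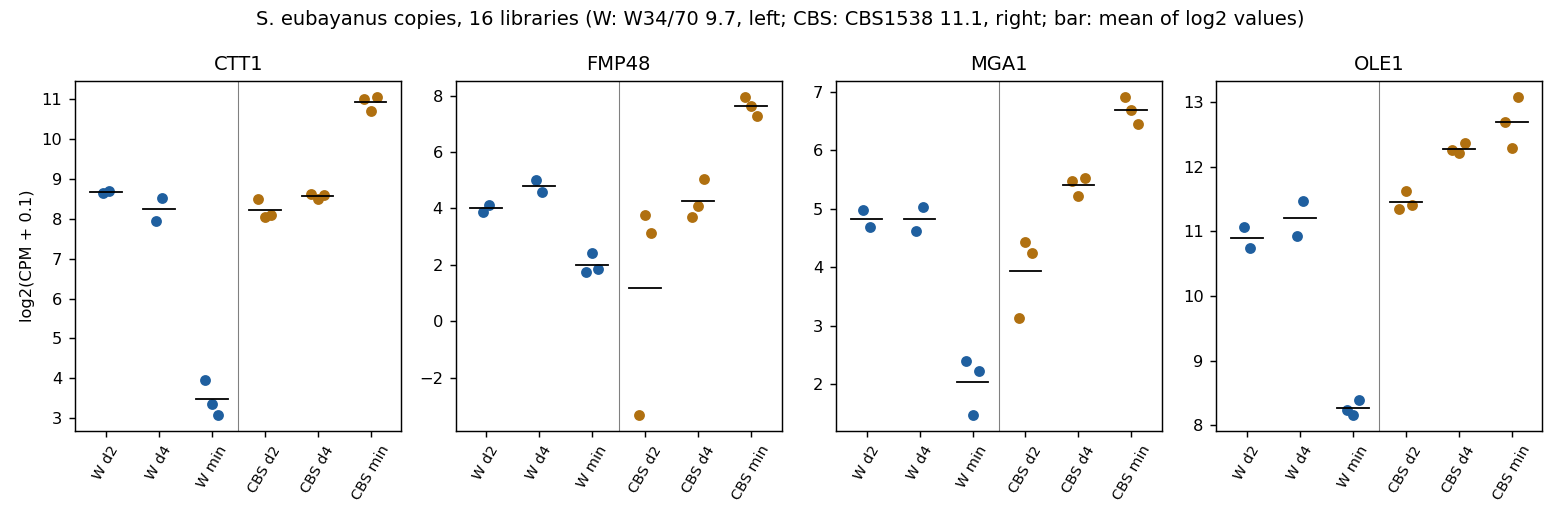
Level of the S. eubayanus copies of CTT1, FMP48, MGA1 and OLE1 (y axis, log2(CPM + 0.1)) on day 2, day 4 and in minimal medium, with W34/70 9.7 left of CBS1538 11.1; points are the 16 libraries and bars the mean of the log2 values. In each gene the minimal medium libraries are the lowest of W34/70 9.7, and for CTT1, FMP48 and MGA1 they are the highest of CBS1538 11.1, where those of OLE1 overlap day 4.

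The strains differ in which copies they express, so genes were set side by side with both copies summed and scaled anew. On day 2, 118 of 403 tested pairs were higher in W34/70 9.7 than in CBS1538 11.1 (background 37.4%) and 101 lower (background 23.8%). The background is over 6681 tested entries, which are the summed pairs together with features that have no single partner, left unsummed. On day 4, 132 were higher (background 41.7%) and 111 lower (background 26.8%), and in minimal medium 148 were higher (background 42.7%) and 115 lower (background 30.3%). The 340 pairs between XRN1 and ZUO1, read from both copies in W34/70 9.7 and from 1 in CBS1538 11.1, had median log2 differences of 0.06, 0.07 and 0.14. The 60 pairs left of XRN1, read from S. cerevisiae copies in both strains, had 0.04, -0.17 and -0.03, and all 6681 entries 0.22, 0.28 and 0.27. Under library totals the split was 81 higher and 132 lower on day 2 and 155 and 84 on day 4. The median of the stretch was thus above that of the pairs left of XRN1 and no higher than that over all entries. Since those entries include unsummed features, the latter is not a comparison with pairs alone.

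The quartiles over the pairs of the stretch were -0.58 and 0.75 on day 2, -0.57 and 0.93 on day 4 and -0.64 and 0.86 in minimal medium. Summed TDH3 had 17480 ± 2776 CPM in W34/70 9.7 and 3763 ± 769 in CBS1538 11.1 on day 2 (n = 2 and 3; log2 difference 2.22, SE 0.29, adjusted p = 4.14e-06). In minimal medium it had 6896 ± 1191 and 3143 ± 923 (difference 1.13, adjusted p = 0.000973). Summed ENO1 had 30271 ± 6299 CPM in W34/70 9.7 and 14231 ± 1978 in CBS1538 11.1 on day 2 (1.09, adjusted p = 0.00518). On day 4 the values were 7470 ± 965 and 7435 ± 1642, a difference of 0.01 (SE 0.31), and in minimal medium 690 ± 166 and 5084 ± 1783, a difference of -2.88. Summed ENO1 was thus higher in W34/70 9.7 on day 2 and lower there in minimal medium. Summed RPL30, a ribosomal protein gene, was higher in W34/70 9.7 in all 3 conditions (1.75, 2.23 and 1.93). Summed CTT1 differed by 0.33 on day 2 and -0.48 on day 4, neither called, and by -6.43 in minimal medium, with 29.6 ± 8.31 CPM in W34/70 9.7 and 2552 ± 308 in CBS1538 11.1 (n = 3 each). Summed OLE1 differed by -3.66 in minimal medium (adjusted p = 1.23e-09).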

How the data were processed

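Whole-number read counts were deposited by the authors as 1 table over the features of both sub-genomes, and its feature names, symbols and coordinates are used as given. STAR, SAMtools, featureCounts and DESeq2, and the build R64, are named in the submitters' processing notes; the versions, the S. eubayanus assembly, strand use and the treatment of reads matching both sub-genomes were not given in the sources used here. Such reads could move counts between the copies of a gene. Cultures were grown in triplicate per the labels, and no 2 replicates were near-identical (the lowest chi-square divided by its degrees of freedom was 17.4).

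Counts were tested with edgeR 4.0.16 and limma 3.58.1 in R 4.3.3 (TMM factors, filterByExpr with a minimum count of 10 and a minimum total of 15, quasi-likelihood tests), in 1 fit of the 6 groups over 16 libraries, without W34/70 9.7 day 2 replicate 2 and day 4 replicate 1. P-values were adjusted by Benjamini-Hochberg over all features tested and called under 0.05, and members were counted from that table. Strains were compared on counts summed over the copies of a gene, with TMM factors of their own, since they express different copies. Features without a single partner of the same name were left unsummed in that fit. Copy ratios were tested in the 7 W34/70 9.7 libraries with a term for each library, over pairs with a mean of 10 counts or more for each copy. Interactions (W34/70 9.7 minus CBS1538 11.1) came from the same 16-library fit. Shares of counts were compared by exact permutation. Deviations of a library are differences of log2(CPM + 0.1) from the mean of the other replicates of its group, over features with a mean of 5 CPM or more. For the other W34/70 9.7 fermentation libraries they were also taken without the 2 libraries, a choice made after seeing the data, which is what the plot of deviations shows. CPM and log2 values were computed from the deposited counts. The scripts were tested on simulated data. DESeq2 1.42.0, Python 3.11.15, SciPy 1.17.1, pandas 2.3.3 and matplotlib 3.10.9 were also used.

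The members, gene lists and tests were chosen with earlier results of these data known, and the ends of the silent blocks were drawn from the levels themselves; XRN1 was fixed as a site from general knowledge. Named genes are list members, the 5 largest called rises and 5 largest called falls per comparison whose groups do not overlap and whose higher group reaches a log2 CPM of 4, the 5 pairs with the largest called change of copy ratio in each direction, the 5 features with most counts left in the 2 libraries, the 5 most abundant per length in each strain, and those at the ends and steps of the chromosome.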

Additional observations from a re-analysis of the deposited data

Results flagged for a closer look

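For 6 S. eubayanus VII genes the responses to minimal medium against day 2 differed between the strains by the interaction test, with a fall called in W34/70 9.7 and a rise called in CBS1538 11.1. The difference of the log2 changes, W34/70 9.7 minus CBS1538 11.1, was -7.92 for CTT1 (-5.17 and 2.75), -6.74 for FMP48 (-2.01 and 4.73) and -5.45 for MGA1 (-2.77 and 2.69). It was -4.86 for SOL4 (-4.20 and 0.66), -4.73 for FMP43 (-1.12 and 3.61) and -3.94 for OLE1 (-2.65 and 1.30). The adjusted p-values of these interactions, from edgeR's quasi-likelihood test with Benjamini-Hochberg adjustment, lay between 6.47e-09 and 5.89e-05. The rise of SOL4 in CBS1538 11.1 missed the threshold without day 2 replicate 1, day 2 replicate 2 or minimal medium replicate 1.

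Against day 4, 4 genes differed in the same way. The difference was -7.19 for CTT1 (-4.77 and 2.42), -6.15 for FMP48 (-2.83 and 3.32), -4.12 for MGA1 (-2.78 and 1.34) and -1.60 for ERG1 (-0.77 and 0.83), with adjusted p-values between 2.26e-08 and 0.00508. CTT1, FMP48 and MGA1 appear in both comparisons, which share the minimal medium libraries. The values against day 2 in CBS1538 11.1 carry the doubt over the labels of its day 2 libraries.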

How the results depend on the processing

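With all 18 libraries, the members called numbered 1, 39 and 19 in W34/70 9.7 and 3, 14 and 14 in CBS1538 11.1 (day 4 against day 2, minimal medium against day 2 and against day 4), and the copy ratio calls were 0, 0 and 0. That fit holds the 2 libraries with almost no counts on the chromosome, whose features then vary within their groups. In it the W34/70 9.7 share differences for minimal medium turned to 0.429 and 0.409 points, both with an exact p of 1. The replicate block left 135 of 243 summed genes called on day 4 (74 higher and 61 lower in W34/70 9.7), and 109, 238 and 178 members in W34/70 9.7 and 141, 222 and 227 in CBS1538 11.1. Replicate numbers did not pair the samples: same-numbered deviations on days 4 and 2 correlated at -0.83, -0.80 and 0.73 in W34/70 9.7, and not every library correlated best with its own number. Day 4 replicate 1 correlated with day 2 replicate 2 at 0.92 and day 4 replicate 2 with day 2 replicate 1 at 0.80, a hint from the data that no label bears out, and the calls between the days take no account of it. Library totals moved the median partner deviation of W34/70 9.7 day 2 replicates 1 and 2 to -0.10 and 0.37, against 0.15 and 0.10 with TMM factors; the cause was not tested. Leaving out 1 library gave 18 to 69, 103 to 151 and 35 to 52 copy ratio calls, and day 4 share differences of -0.0412 to 0.189 points in CBS1538 11.1 and -0.0383 to 0.1 in W34/70 9.7. Member calls then spanned 101 to 241 in W34/70 9.7 and 109 to 222 in CBS1538 11.1. Of all alternative values of these results, 130 stayed within 1.5 times or kept side and sign, 12 moved and 2 turned sign; with a library left out these were 81, 9 and 4. The gene list counts were less stable: 477 stayed within 1.5 times and 171 did not, against 463 and 116 with a library left out; for named genes 1504 and 1397 values kept direction and call and 324 and 233 lost the call, 258 of the 324 in the fit of 18 libraries. Low counts limit what the silent blocks can show, and with 2 libraries in each W34/70 9.7 wort group small changes were not detectable at this depth.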
